A study of Mus musculus with 10 samples.

Results

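The genes described are 42 genes of the type I interferon and antiviral response, listed by symbol: the receptor chains and transcription factors of the pathway, the sensors of foreign nucleic acid, and the antiviral genes that interferon induces. They were followed in 10 lines of B16OVA, mouse B16 melanoma cells (strain C57BL/6) whose name denotes the model antigen ovalbumin (OVA), with 1 Affymetrix array of total RNA per line. Of the 42 genes, 40 were found under their array symbol and Cgas (listed as Mb21d1) under an older array symbol, which gave 41 of the 23360 genes with a single symbol. Oas1a shares its transcript cluster (the set of probes summarised into 1 value) with another symbol and was not used. Tmem173 is given under its current symbol, Sting1.

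One line was the parent. The others were variants established from tumours: 3 from naive B6 mice (NIMM 1, 3 and 4), 3 from B6 mice immunized with OVA (IMM 1, 2 and 8) and 3 from OVA-immunized mice without interferon-gamma (IFN-gamma; GKO-IMM 1, 2 and 3). Per the series' design text, IMM lines grew progressively on re-challenge of OVA-immunized mice, unlike NIMM and GKO-IMM lines, and the arrays were run to look for what sets IMM lines apart. The hosts of the GKO-IMM lines lacked IFN-gamma, not the tumour cells, and there is no group from naive IFN-gamma-deficient mice, so GKO-IMM against NIMM differs in both immunization and host genotype. The labels call the material a cell line and also describe it as tumours. They do not say whether a line is a clone or whether lines of a group came from separate mice, so p-values measure only the spread between these lines.

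Type I interferons (the interferon-alpha family and interferon-beta) bind a receptor of the chains IFNAR1 and IFNAR2. The kinases JAK1 and TYK2 then act on STAT2, which joins IRF9 in a complex that binds the interferon-stimulated response element (ISRE) in the promoters of antiviral genes. The sensors RIG-I (Ddx58), MDA5 (Ifih1), TLR3 and cGAS start interferon production through adaptors such as MAVS and STING and the factors IRF3 and IRF7. IFN-gamma uses a separate receptor and acts mainly through the gamma-activated site, and many antiviral genes respond to both. In tumours, including melanoma, these genes are commonly read as a sign of interferon signalling.

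The promoters below are shown to see which of the genes whose levels varied most among the lines carry the response element. They belong to Ifit3, Ifit1, Tlr3, Ifitm3 and Cmpk2, the 5 members with the largest range over the 9 established lines, and to Rsad2, the neighbour of Cmpk2, which was chosen after its values were seen. Each is the 250 bases before an annotated start in RefSeq (GRCm38.p6), 5′ to 3′ on the gene's strand. Capitals mark matches to the ISRE core, read as GAAA, any 2 bases and GAAA again on either strand. In these windows the matches lie on the opposite strand and so read TTTC, 2 bases, TTTC.
Ifit3, chr19:34583279-34583528, plus strand: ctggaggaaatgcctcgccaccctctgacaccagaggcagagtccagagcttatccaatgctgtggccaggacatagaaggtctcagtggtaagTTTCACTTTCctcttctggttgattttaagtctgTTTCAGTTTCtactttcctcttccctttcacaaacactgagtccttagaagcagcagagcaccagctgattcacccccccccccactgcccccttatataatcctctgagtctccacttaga
Ifit1, chr19:34640639-34640888, plus strand: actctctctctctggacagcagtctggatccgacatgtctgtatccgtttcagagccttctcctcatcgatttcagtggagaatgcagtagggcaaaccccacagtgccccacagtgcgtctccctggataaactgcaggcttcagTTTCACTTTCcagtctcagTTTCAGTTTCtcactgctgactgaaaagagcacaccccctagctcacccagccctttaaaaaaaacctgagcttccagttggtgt
Rsad2, chr12:26456453-26456702, minus strand: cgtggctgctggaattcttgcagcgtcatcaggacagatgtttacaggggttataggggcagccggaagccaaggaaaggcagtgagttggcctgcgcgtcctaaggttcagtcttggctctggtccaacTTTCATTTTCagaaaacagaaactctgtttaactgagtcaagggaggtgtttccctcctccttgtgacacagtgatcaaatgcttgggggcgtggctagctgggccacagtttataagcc
Cmpk2, chr12:26468965-26469214, plus strand: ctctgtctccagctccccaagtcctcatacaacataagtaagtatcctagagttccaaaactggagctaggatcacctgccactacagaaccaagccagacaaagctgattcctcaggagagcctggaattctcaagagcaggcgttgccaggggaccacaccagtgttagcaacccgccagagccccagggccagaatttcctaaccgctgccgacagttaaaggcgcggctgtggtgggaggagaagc
Tlr3, chr8:45410381-45410630, minus strand: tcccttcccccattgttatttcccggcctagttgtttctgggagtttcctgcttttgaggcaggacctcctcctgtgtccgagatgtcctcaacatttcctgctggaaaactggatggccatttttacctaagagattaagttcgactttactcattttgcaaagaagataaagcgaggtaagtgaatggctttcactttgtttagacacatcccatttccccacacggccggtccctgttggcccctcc
Ifitm3, chr7:141010745-141010994, minus strand: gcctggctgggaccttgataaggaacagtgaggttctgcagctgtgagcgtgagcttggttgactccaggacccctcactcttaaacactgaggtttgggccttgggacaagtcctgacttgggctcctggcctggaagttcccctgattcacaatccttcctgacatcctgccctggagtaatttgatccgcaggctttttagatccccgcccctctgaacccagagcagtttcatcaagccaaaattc

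Ifit3 held the core at 156 and 122 bases before its start, Ifit1 at 104 and 85 bases, and Rsad2 at 120 bases. The letters did not occur in the windows of Cmpk2, Tlr3 and Ifitm3. Of the 41 matched members, 32 had a promoter in the table. The ISRE core was present in 8 of these (25.0%): Bst2, Ifit1, Ifit3, Ifitm2, Isg15, Oas3, Rsad2 and Stat2. Among all 27025 genes with such a window, 936 (3.46%) held it. The core of the gamma-activated site, read as TTC, any 3 bases and GAA, occurred in 5 of the 32 (15.6%; Bst2, Eif2ak2, Ifit2, Ifnar2 and Isg20), against 8.13% of all genes. Both cores were searched on both strands. A match is a string of letters, not a measured binding site.

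Most of the group was above background, but several of the classical induced genes were not. With no detection call in the files, the level was set against 1375 olfactory and vomeronasal receptor genes, which act in the sensory cells of the nose. Their 95th percentile was a log2 intensity of 4.99 (intensity 31.7). By the mean over the 10 lines, 31 of the 41 members (75.6%) lay above it, against 58.2% of all 23360 genes. At the 99th percentile of the receptor genes, a log2 intensity of 5.50, 24 members were above it, and Ifit3, Isg15, Oas3, Oasl1, Dhx58, Usp18 and Xaf1 were not. In single lines, 30 to 33 of the 41 were above the same percentile of that array. A probe set's brightness depends on its probes, so levels are compared between lines of 1 gene and not between genes.

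The 10 members not above this level were Irf7, Oas2, Oasl2, Mx1, Mx2, Ifi44, Ifitm1, Rtp4, Trim25 and Zbp1. Mx1 and Mx2 belong to a family of genes for dynamin-like GTPases, known for blocking viruses and for being switched on by interferon. Whether the alleles of this mouse strain are intact was not tested, so their low values may not reflect interferon signalling. Mx1 lay between 4.43 and 4.73 over the 10 lines and Mx2 between 4.41 and 4.70. Irf7 encodes the interferon-inducible factor that amplifies interferon-alpha production, and its log2 intensity was 4.82 in the parent, 4.79, 4.91 and 4.92 in the NIMM lines, 4.80, 4.83 and 4.85 in the IMM lines, and 4.93, 4.84 and 4.83 in the GKO-IMM lines. These values lay within 0.14 of each other over the 9 established lines and below 4.99 in each line. Zbp1 was just under the level with a mean of 4.98, and Xaf1, an induced gene linked to cell death, just over it with 5.05.

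**Figure D1:**
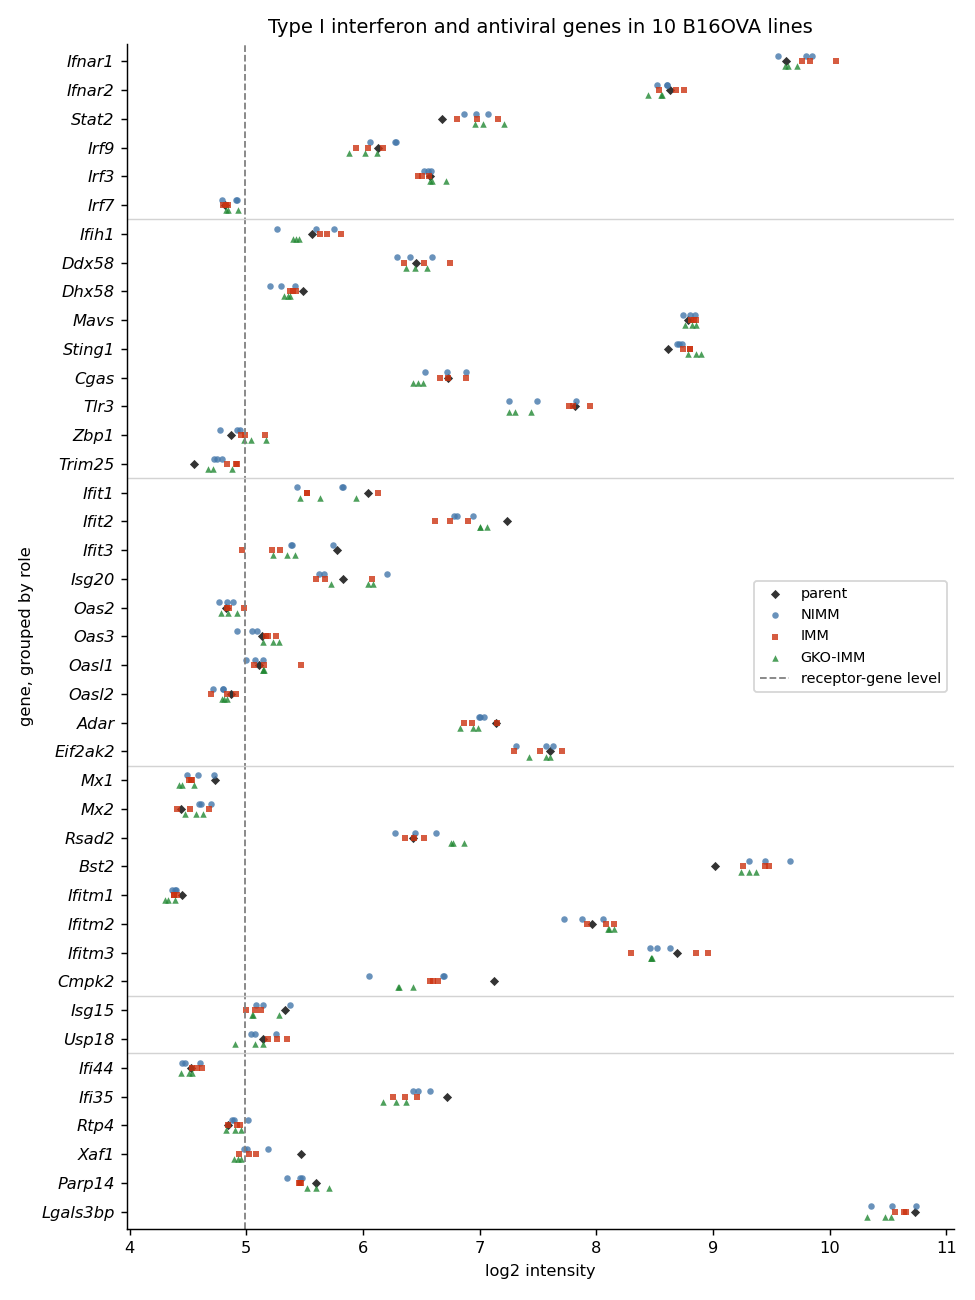
Log2 intensity (x axis) of the 41 matched genes in the 10 lines, 1 point per line, with genes grouped by role on the y axis and colour and shape giving the kind of line. The dashed line is the receptor-gene level of 4.99; for most genes the 4 kinds of line lie over each other.

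Before the comparisons, NIMM 4 stood apart from its group. Over the 16352 genes tested, its log2 difference from NIMM 1 and NIMM 3 had an SD of 0.229 and 0.221, against 0.125 between NIMM 1 and NIMM 3. Against GKO-IMM 1, 2 and 3 the SD was 0.152, 0.161 and 0.171. The results that moved most without this line are given both ways. Array medians lay between 31.9 and 32.5 in intensity.

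Both receptor chains were well above background. Ifnar1 encodes the chain that carries TYK2. Its log2 intensity was 9.62 in the parent, 9.84, 9.79 and 9.56 in NIMM 1, 3 and 4, 10.06, 9.77 and 9.83 in IMM 1, 2 and 8, and 9.64, 9.61 and 9.72 in GKO-IMM 1, 2 and 3. Each IMM line lay above each GKO-IMM line, and NIMM 4 was the lowest of all. The IMM minus GKO-IMM difference was 0.23 ± 0.09 (SE, 3 lines a group; adjusted p = 0.229), and 0.14 without IMM 1. Ifnar2, the chain that carries JAK1, was at 8.63 in the parent, 8.60, 8.60 and 8.52 in NIMM, 8.68, 8.53 and 8.75 in IMM, and 8.56, 8.56 and 8.45 in GKO-IMM lines. The groups overlapped.

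The transcription factors above background, Stat2, Irf9 and Irf3, ranged over 0.24 to 0.41 in the 9 established lines. Stat2 was at 6.68 in the parent, 6.86, 6.97 and 7.07 in NIMM, 7.16, 6.98 and 6.80 in IMM, and 7.21, 7.03 and 6.96 in GKO-IMM lines, so the parent was below all 9 established lines and the groups overlapped. Irf9, the DNA-binding partner of STAT2, was at 6.13 in the parent, 6.06, 6.28 and 6.28 in NIMM, 6.17, 5.94 and 6.04 in IMM, and 5.88, 6.12 and 6.02 in GKO-IMM lines. Irf3, the constitutive factor downstream of the sensors, was at 6.57 in the parent, 6.56, 6.53 and 6.59 in NIMM, 6.47, 6.51 and 6.56 in IMM, and 6.59, 6.58 and 6.72 in GKO-IMM lines. Its range over the 9 established lines was 0.24, and the IMM lines lay just below the GKO-IMM lines.

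Among the sensors, Tlr3 varied most. Tlr3 encodes the endosomal receptor for double-stranded RNA. It was at 7.82 in the parent, 7.83, 7.49 and 7.26 in NIMM 1, 3 and 4, 7.77, 7.80 and 7.95 in IMM 1, 2 and 8, and 7.30, 7.25 and 7.44 in GKO-IMM 1, 2 and 3. All IMM lines were above all GKO-IMM lines, and the NIMM lines spread over both, with NIMM 1 at the IMM values and NIMM 4 at the GKO-IMM values. The IMM minus GKO-IMM difference was 0.51 ± 0.12, or 1.42-fold, with an adjusted p of 0.0726 in limma, just outside the threshold of 0.05.

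Cgas, the cytosolic DNA sensor that makes the messenger cGAMP, had a like order of lines. It was at 6.73 in the parent, 6.88, 6.72 and 6.53 in NIMM, 6.88, 6.66 and 6.73 in IMM, and 6.52, 6.43 and 6.47 in GKO-IMM lines. The GKO-IMM lines were below all others, and NIMM 4 was next to them. Its IMM minus GKO-IMM difference was 0.28 ± 0.09 (adjusted p = 0.141). Its GKO-IMM minus NIMM difference was -0.24 ± 0.09 (adjusted p = 0.284), and -0.15 without NIMM 1. Ifih1, which encodes the long double-stranded RNA sensor MDA5, was at 5.56 in the parent, 5.26, 5.75 and 5.60 in NIMM, 5.81, 5.63 and 5.69 in IMM, and 5.42, 5.40 and 5.45 in GKO-IMM lines. The lowest value was that of NIMM 1, and the IMM lines lay above the GKO-IMM lines (difference 0.29 ± 0.11, adjusted p = 0.196).

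Ddx58, which encodes RIG-I, was at 6.46 in the parent, 6.40, 6.30 and 6.59 in NIMM, 6.52, 6.75 and 6.35 in IMM, and 6.45, 6.55 and 6.37 in GKO-IMM lines, with full overlap. The adaptor Mavs had the smallest range of the members above background, 0.11 over the 9 established lines. Sting1, the adaptor of cGAS, was at 8.61 in the parent, 8.71, 8.69 and 8.74 in NIMM, 8.80, 8.74 and 8.81 in IMM, and 8.86, 8.79 and 8.90 in GKO-IMM lines. The parent and the NIMM lines held the 4 lowest values. Dhx58, a regulator of RIG-I and MDA5, lay between 5.21 and 5.49 over the 10 lines.

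The IFIT genes, whose products bind foreign RNA and block its translation, lie side by side on chromosome 19. Ifit3 and Ifit1, which both hold 2 copies of the ISRE core, did not show one order of lines. Ifit3 was at 5.78 in the parent, 5.39, 5.74 and 5.38 in NIMM, 5.29, 5.22 and 4.96 in IMM, and 5.42, 5.23 and 5.35 in GKO-IMM lines. Its range of 0.78 was the largest among the members above background, but its low end, IMM 8, was below the receptor-gene level. The IMM lines lay below all NIMM lines, at a difference of -0.35 ± 0.11 (adjusted p = 0.225), or -0.23 without NIMM 3. That difference was -0.56 with 15 subtracted from the intensity before the log. Ifit1 was at 6.04 in the parent, 5.44, 5.83 and 5.82 in NIMM, 5.52, 6.13 and 5.52 in IMM, and 5.63, 5.46 and 5.94 in GKO-IMM lines. Each group held low and high lines.

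Ifit2, which lies 6.584 kb from Ifit3, was at 7.23 in the parent, 6.78, 6.94 and 6.81 in NIMM, 6.62, 6.90 and 6.75 in IMM, and 7.066, 7.0018 and 7.0003 in GKO-IMM lines. The GKO-IMM lines were above all NIMM and IMM lines, and the parent above them. The IMM minus GKO-IMM difference was -0.27 ± 0.08 (adjusted p = 0.117). Isg20, an exonuclease that degrades RNA, was at 5.83 in the parent, 5.67, 5.62 and 6.20 in NIMM, 5.68, 5.60 and 6.08 in IMM, and 6.05, 6.09 and 5.72 in GKO-IMM lines. High and low values occurred in every group.

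Of the oligoadenylate synthetase family, whose members signal to RNase L, Oas3 was at 5.14 in the parent, 4.92, 5.09 and 5.05 in NIMM, 5.17, 5.18 and 5.26 in IMM, and 5.14, 5.23 and 5.28 in GKO-IMM lines. The NIMM lines held the 3 lowest values, within 0.36 of the highest line and close to the receptor-gene level. The difference was 0.18 ± 0.07 for IMM minus NIMM (adjusted p = 0.263) and 0.20 ± 0.07 for GKO-IMM minus NIMM (adjusted p = 0.234). Oasl1, a translational repressor of Irf7 in the mouse, was at 5.11 in the parent, 5.0004, 5.07 and 5.15 in NIMM, 5.06, 5.15 and 5.47 in IMM, and 5.14, 5.15 and 5.15 in GKO-IMM lines. IMM 8 was the highest line and the groups overlapped. Adar, the RNA editing enzyme, ranged over 0.32, and Eif2ak2, the kinase PKR, over 0.41.

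Rsad2 and Cmpk2 lie 12.664 kb apart on chromosome 12 on opposite strands. The GKO-IMM lines and NIMM 4 were the highest established lines for Rsad2 and the lowest for Cmpk2. Within the IMM group the order of lines was the same for both genes. Rsad2 encodes viperin, which makes a chain-terminating nucleotide. It was at 6.43 in the parent, 6.28, 6.45 and 6.63 in NIMM 1, 3 and 4, 6.44, 6.52 and 6.36 in IMM 1, 2 and 8, and 6.77, 6.76 and 6.87 in GKO-IMM 1, 2 and 3. The GKO-IMM lines were the 3 highest, and NIMM 4 came next. Rsad2 had the smallest F test p of the members (adjusted p = 0.0871); its IMM minus GKO-IMM difference was -0.36 ± 0.09 (adjusted p = 0.077) and its GKO-IMM minus NIMM difference 0.35 ± 0.09 (adjusted p = 0.141).

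Cmpk2, a mitochondrial nucleotide kinase, was at 7.13 in the parent, 6.69, 6.69 and 6.05 in NIMM 1, 3 and 4, 6.60, 6.64 and 6.57 in IMM, and 6.43, 6.31 and 6.30 in GKO-IMM lines. NIMM 4 was the lowest of all lines, below the GKO-IMM lines, and the parent the highest. The IMM minus GKO-IMM difference was 0.26 ± 0.14 (adjusted p = 0.369). The GKO-IMM minus NIMM difference was -0.13 ± 0.14 (adjusted p = 0.708).

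The IFITM proteins hinder virus entry at endosomal membranes. Ifitm3 was at 8.69 in the parent, 8.64, 8.46 and 8.52 in NIMM, 8.96, 8.30 and 8.85 in IMM, and 8.47, 8.47 and 8.47 in GKO-IMM lines. The IMM group held both the highest lines and the lowest, with an SD of 0.35. Its IMM minus GKO-IMM difference was 0.23 ± 0.14 (adjusted p = 0.416), and 0.11 without IMM 1. Ifitm2 was at 7.89 ± 0.17 in NIMM, 8.05 ± 0.12 in IMM and 8.12 ± 0.03 in GKO-IMM lines (mean ± SD, n = 3). Bst2, which encodes tetherin, lay between 9.24 and 9.66 in the 9 established lines and at 9.02 in the parent.

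Of the ISG15 system, Isg15 itself, a ubiquitin-like protein, stayed close to the receptor-gene level at 5.34 in the parent and 4.996 to 5.38 in the others. Usp18, which removes ISG15 and restrains IFNAR2, was at 5.15 in the parent, 5.25, 5.08 and 5.04 in NIMM, 5.27, 5.19 and 5.35 in IMM, and 4.90, 5.08 and 5.14 in GKO-IMM lines. The IMM lines lay above the GKO-IMM lines (difference 0.23 ± 0.08, adjusted p = 0.187). Ifi35, an interferon-induced protein, was at 6.49 ± 0.08 in NIMM, 6.36 ± 0.10 in IMM and 6.27 ± 0.10 in GKO-IMM lines (mean ± SD, n = 3). A second transcript cluster of Ifi35 was near the receptor-gene level at 5.04 and did not show this order. Parp14 was at 5.43 ± 0.07, 5.46 ± 0.01 and 5.61 ± 0.10 and Lgals3bp at 10.54 ± 0.19, 10.62 ± 0.05 and 10.44 ± 0.10 in the same order of groups.

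**Figure D2:**
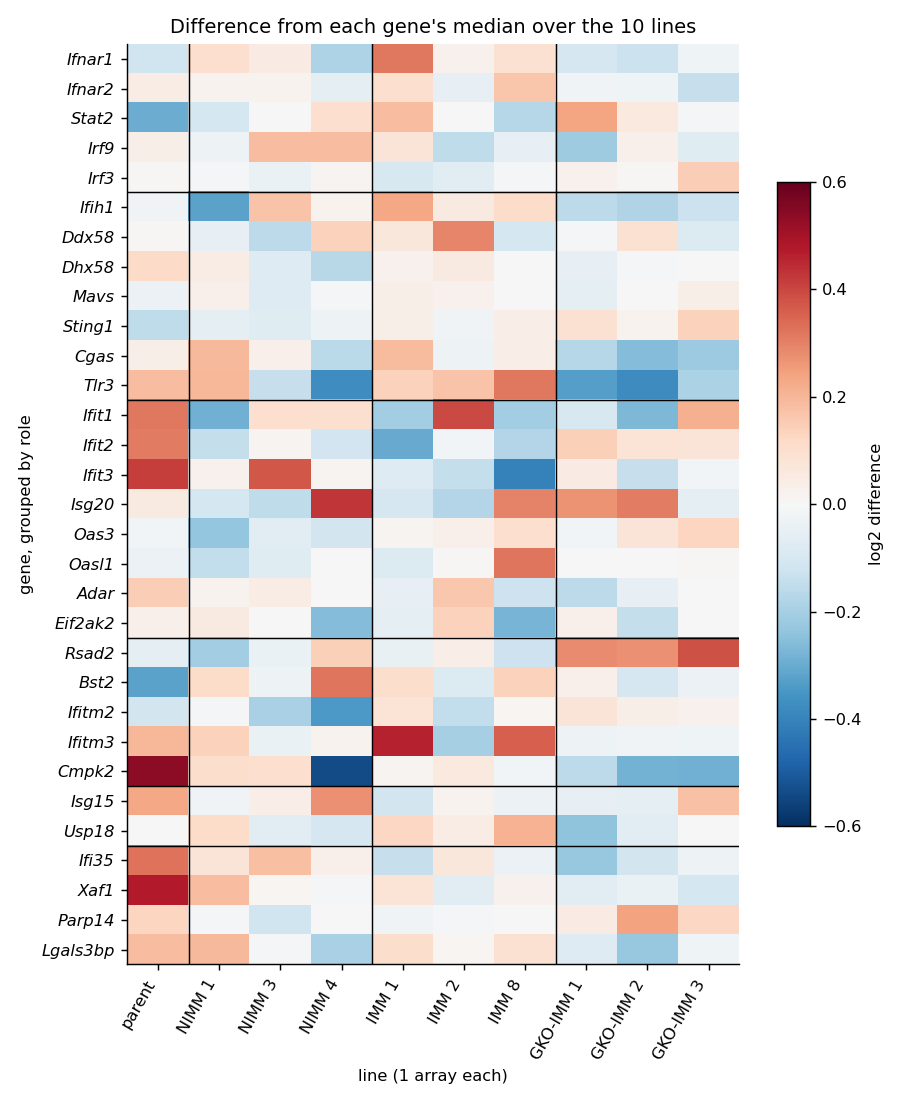
Difference of each line from the gene's median over the 10 lines (colour, log2 scale) for the 31 genes above the receptor-gene level, grouped by role. Tlr3, Cgas and Cmpk2 are low in NIMM 4 and the GKO-IMM lines, where Rsad2 is high, and the parent is high for Cmpk2, Xaf1 and the IFIT genes.

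The range over the 9 established lines had a median of 0.42 on the log2 scale for the 31 members above background, from 0.11 for Mavs to 0.78 for Ifit3. For all 13588 genes above that level the median range was 0.33 and its 95th percentile 0.71. Only Ifit3 among the members exceeded this percentile. Over the members tested, the GKO-IMM lines were closest to each other, with an SD of the log2 difference of 0.112, 0.134 and 0.143. It was 0.162 to 0.227 between pairs of IMM lines and 0.173 to 0.263 between pairs of NIMM lines. Over all genes tested it was 0.118 to 0.136 in GKO-IMM, 0.142 to 0.184 in IMM and 0.125 to 0.229 in NIMM pairs. The closeness of the GKO-IMM lines was thus not particular to the members.

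The comparison of IMM with the other groups asks whether lines that escaped immunity differ in these genes. Of the 41 members, 37 were bright enough for the test (Mx1, Mx2, Ifi44 and Ifitm1 were not). Tested but not above the receptor-gene level were Irf7, Oas2, Oasl2, Rtp4, Trim25 and Zbp1. A gene passed at an adjusted p under 0.05 in limma over all 16352 genes. In IMM minus NIMM, 0 of 37 members passed, against 0.428% of all genes. At an unadjusted p under 0.05 there were 3 (8.11%; Ifit3, Oas3 and Tlr3), against 14.1% of all genes. The 3 lines of one group did not overlap those of the other for 5 members (13.5%), against 18.6% of all genes. Ifit3 was lower in all IMM lines, and Oas3, Trim25, Zbp1 and Sting1 higher. The means of Trim25 and Zbp1 were not above the receptor-gene level, and that of Oas3 was close to it. The median difference was 0.04 over the members and 0.02 over all genes, with 24 members above 0 and 13 below.

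In IMM minus GKO-IMM, 0 of 37 members passed in limma, against 1.17% of all genes. At an unadjusted p under 0.05 there were 8 members (21.6%), against 17.2% of all genes. The groups did not overlap for 12 members (32.4%), against 25.8% of all genes. In 8 of them the IMM lines were the higher ones (Tlr3, Cgas, Usp18, Ifih1, Ifnar1, Lgals3bp, Cmpk2 and Dhx58), and in 4 the lower ones (Rsad2, Ifit2, Parp14 and Irf3). In a second transcript cluster of Lgals3bp, with a mean of 7.73, the groups overlapped. There IMM 2 was at 7.586, below GKO-IMM 1, 2 and 3 at 7.589, 7.638 and 7.681. The means of Usp18 (5.14) and Dhx58 (5.37) were close to the receptor-gene level, and Usp18 was below it in GKO-IMM 1. The median difference was 0.04, against 0.01 over all genes, with 23 members above 0 and 14 below.

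In GKO-IMM minus NIMM, 0 of 37 members passed in limma, against 0.122% of all genes. At an unadjusted p under 0.05 there were 10 members (27%), against 13.9% of all genes. The groups did not overlap for 11 members (29.7%), against 19.5% of all genes. Rsad2, Oas3, Parp14, Ifitm2, Sting1, Zbp1 and Ifit2 were higher in all GKO-IMM lines, and Ifi35, Cgas, Xaf1 and Adar lower. The mean of Zbp1 was not above the receptor-gene level, and those of Oas3 and Xaf1 were close to it. The median difference was -0.01, against 0.01 over all genes, with 18 members above 0 and 19 below. This comparison and the others share their lines, so their counts are not independent.

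Against both groups at once, IMM minus the mean of NIMM and GKO-IMM, 0 of 37 passed in limma (0.807% of all genes). At an unadjusted p under 0.05 there were 8 members (21.6%), against 16.4% of all genes. No member had its 3 IMM lines on one side of all 6 other established lines, which 6.79% of all genes did. The smallest adjusted p was that of Tlr3, 0.104, at a difference of 0.41 ± 0.10, and without NIMM 4 the difference was 0.34 (adjusted p = 0.0582). In the F test, which asks for any difference between the 3 kinds of established line, 0 of 37 members passed (1.02% of all genes). At an unadjusted F test p under 0.05 there were 9 members (24.3%), against 18.4% of all genes.

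The 95% intervals give the size of difference in log2 intensity that these lines allow. They lay wholly within 0.5 of 0 on the log2 scale (1.41-fold) for 35 of 37 members in IMM minus NIMM, 31 in IMM minus GKO-IMM and 36 in GKO-IMM minus NIMM. Near background, differences are compressed, so a narrow interval there does not bound a change in transcript. The 37 include Irf7, Oas2, Oasl2, Rtp4, Trim25 and Zbp1, not above the receptor-gene level. For Ifit1 the interval of IMM minus NIMM ran from -0.36 to 0.41, for Ifnar2 from -0.07 to 0.23 and for Stat2 from -0.20 to 0.22.

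**Figure D3:**
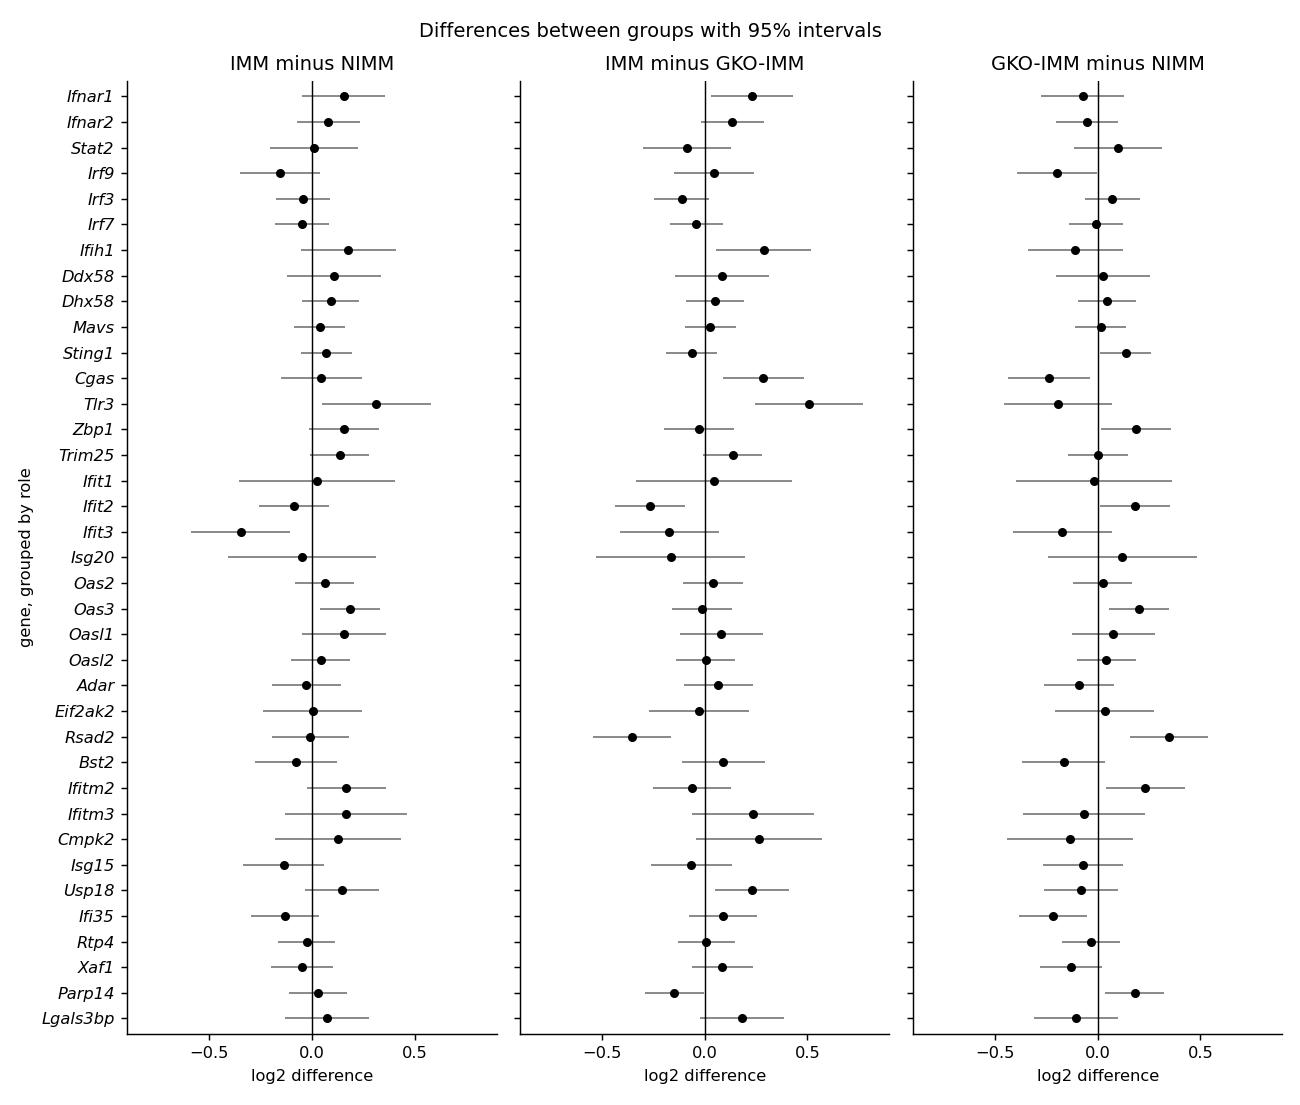
Difference between group means (x axis, log2 scale) with its 95% interval from limma for the 37 genes tested, in 3 comparisons of 3 lines each. Farthest from 0 are Tlr3 at 0.51 and Rsad2 at -0.36 in IMM minus GKO-IMM, Rsad2 at 0.35 in GKO-IMM minus NIMM and Ifit3 at -0.35 in IMM minus NIMM.

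For a few members the call hung on single lines. Without NIMM 4, Tlr3, Rsad2, Cgas and Cmpk2 passed in IMM minus GKO-IMM, where 7.39% of all genes then passed. The differences were the same, since no NIMM line enters them, and the adjusted p became 0.00612 for Tlr3, 0.00966 for Rsad2, 0.0358 for Cgas and 0.0218 for Cmpk2. Rsad2, Cgas and Cmpk2 also passed in GKO-IMM minus NIMM without NIMM 4, at 0.44, -0.33 and -0.35, where 7.73% of all genes passed. The Cmpk2 difference there was -0.13 with all lines and -0.03 without NIMM 1 or NIMM 3. Tlr3 did not pass in IMM minus NIMM, at 0.31 with NIMM 4 and 0.18 without it. Without NIMM 1, Tlr3 and Rsad2 passed in IMM minus GKO-IMM (1.36% of all genes), and without IMM 2, Ifitm3 passed at 0.44 (1.44% of all genes), against 0.23 with all lines. Fitted from the IMM and GKO-IMM lines alone, 5 members passed, Tlr3, Rsad2, Cgas, Cmpk2 and Ifih1, among 5.97% of all genes.

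**Figure D4:**
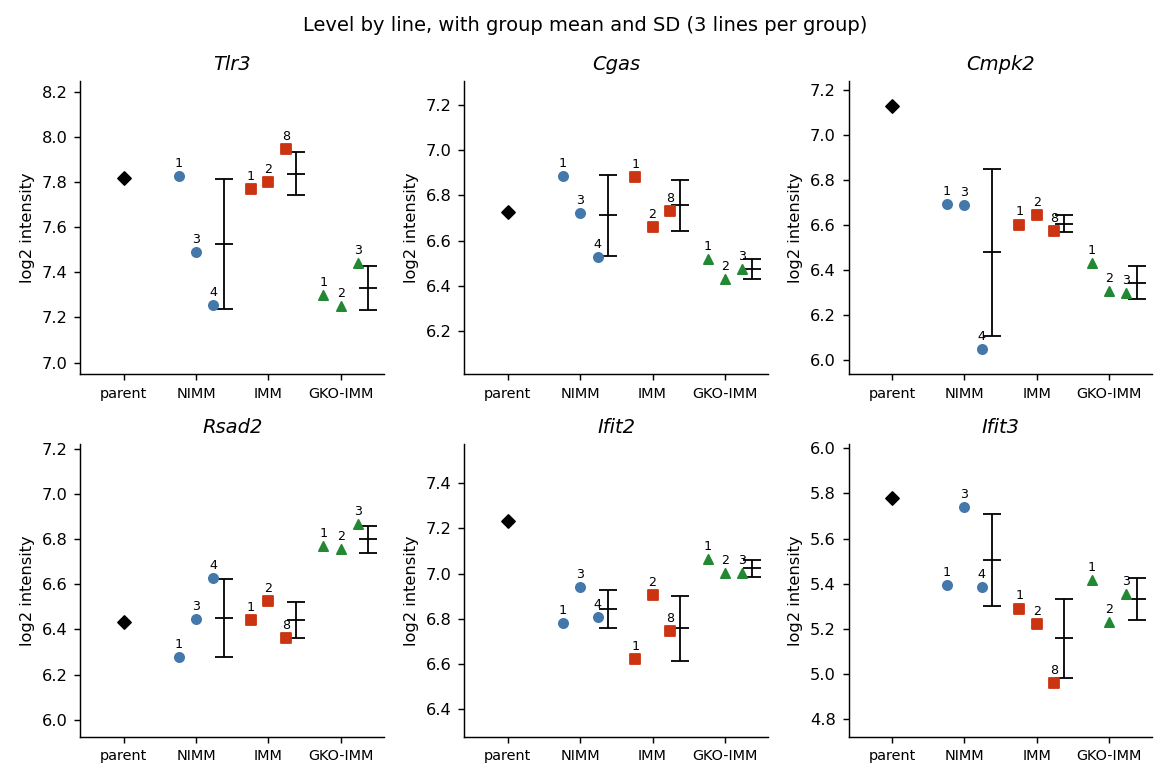
Log2 intensity (y axis) of 6 genes by kind of line, 1 point per line labelled with its line number, with the mean and SD of 3 lines beside each group. For Tlr3, Cgas and Cmpk2 the GKO-IMM lines and NIMM 4 hold the lowest established values, and for Rsad2 the highest.

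The parent, with 1 array, was compared without a test. It lay above all 9 established lines for 6 of 37 members (16.2%; Cmpk2, Dhx58, Ifi35, Ifit2, Ifit3 and Xaf1), against 12.4% of all genes, and below all of them for 4 (10.8%; Bst2, Stat2, Sting1 and Trim25), against 13.5%. Only Cmpk2 was also at least 0.5 above the lines' median (0.667% of all genes), at 0.55, and no member was as far below it (0.972% of all genes). Xaf1 was 0.49 above the median of the 9 lines, Ifit3 0.43, Ifit1 0.41, Ifi35 0.36 and Ifit2 0.33. Bst2 was at -0.35 and Stat2 at -0.30. Over all members the median was 0.03, against -0.01 over all genes.

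Other genes of the pathway were read from lists. Of 16 type I and III interferon genes, 14 were matched and 5 were above the receptor-gene level (Ifna1, Ifna4, Ifna14, Ifnl2 and Ifnl3). Interferon genes of one family are near-identical, so a probe set may take signal from its relatives. Ifnb1, the gene for interferon-beta, was at 4.40 in the parent and 4.30 to 4.53 in the other lines, below that level. None of the 6 tested passed. The smallest F test p was that of Ifna14, at 5.71, 5.82 and 5.56 in NIMM, 5.36, 5.33 and 5.39 in IMM, and 5.24, 5.58 and 5.44 in GKO-IMM lines (adjusted p = 0.141), followed by Ifna4 (adjusted p = 0.271).

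Of 20 genes of proximal signalling, 19 were tested and none passed. The closest were Ptpn6, the phosphatase SHP-1, with IMM minus GKO-IMM at 0.43 ± 0.12 (adjusted p = 0.102), and Traf6, an adaptor ligase, at -0.18 ± 0.08 (adjusted p = 0.293). For Jak1 and Tyk2 the difference farthest from 0 among the 3 pairs of groups was that of Tyk2, 0.05 in IMM minus NIMM. Of 19 further sensors, 10 were tested and none passed. Dhx15, an RNA helicase, was at 10.54, 10.54 and 10.55 in IMM lines, above the other lines at 10.10 to 10.42 (IMM minus both, 0.27 ± 0.07, adjusted p = 0.125), and Ddx41 had the next smallest F test p (adjusted p = 0.335).

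Of 60 further interferon-stimulated genes, 53 were matched and 38 tested, and 2 passed the F test, as did 1.02% of all genes. Trim21, a ubiquitin ligase that binds antibody inside cells, fell in IMM lines. It was at 6.83 in the parent, 6.74, 6.73 and 6.67 in NIMM, 6.21, 5.88 and 5.98 in IMM, and 6.49, 6.56 and 6.57 in GKO-IMM lines, without overlap. The difference was -0.69 ± 0.08 against NIMM (adjusted p = 0.00519) and -0.51 ± 0.08 against GKO-IMM lines (adjusted p = 0.0132). The second call was lost without IMM 8 (adjusted p = 0.073) or without GKO-IMM 1, 2 or 3 (0.0565, 0.0726 and 0.0904). Trim21 lies on chromosome 7, where 57.6% of the 1309 genes tested were lower in IMM than in NIMM lines. Of all genes tested, 56.6% were higher in IMM lines. Chromosome 7 held 1309 of the 16352 genes tested, but 27 of the 70 genes that passed in IMM minus NIMM. It also held 49 of the 191 that passed in IMM minus GKO-IMM. The part of the chromosome in the Trim21 difference was not tested.

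Sp100, a nuclear body protein, rose in IMM lines, but its mean over the 10 lines was 4.96, not above the receptor-gene level. The values given are those of the brightest of its 4 transcript clusters. Sp100 was at 5.30, 5.10 and 5.16 in IMM lines and 4.84 to 4.89 in the other lines. The difference was 0.33 ± 0.06 against NIMM (adjusted p = 0.0499) and 0.31 ± 0.06 against GKO-IMM lines (adjusted p = 0.0427), and 15 and 11 of 18 alternatives ended these calls. The 5 tested members on chromosome 7 (Irf3, Irf7, Isg20, Ifitm2 and Ifitm3) had a median of -0.04 in IMM minus NIMM. It was -0.03 for the chromosome and 0.02 over all genes.

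The labelled cell type was checked against markers. All 7 melanocyte markers were above the receptor-gene level. Of 15 leukocyte markers 4 were (Cd79a, Cd68, Csf1r and H2-Eb1), while Ptprc, which encodes CD45, and Cd3e were not. The summed intensity of the 15 was 457 to 488 in NIMM, 462 to 470.2 in IMM, 450.2 to 464 in GKO-IMM lines and 554 in the parent, where Cd68 was at 7.19. Of 9 fibroblast and 5 endothelial markers, 6 and 2 were above the level. The fibroblast sum was 397 to 439 in NIMM, 426 to 435 in IMM, 397 to 411 in GKO-IMM lines and 351 in the parent. The endothelial sum was 140.4 to 145.6, 145.4 to 148.5, 143.9 to 145.1 and 138.8 in the same order. In both, each IMM line lay above each GKO-IMM line. Of the 7 fibroblast markers tested, 3 had an unadjusted F test p under 0.05, against 18.4% of all genes. None of the markers tested passed, and their part in the values above was not tested. In bulk RNA, fewer cells with a transcript and less transcript per cell cannot be told apart.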

How the data were processed

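Each of the 10 B16OVA lines had 1 Affymetrix MoGene-2_0-st array. RNA was taken with Trizol and labelled with biotin as cRNA, per the labels' protocols. Per the file headers, the deposited raw columns hold intensity values per transcript cluster, whose lowest value was 17.3. The deposited normalized columns hold log2 values, which equal the log2 of the intensity minus each cluster's median over the 10 arrays (largest difference 2.23e-06). How probes were background-corrected and summarized, and with which software, is not given in the sources used here.

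Log2 intensities were analysed with no further normalization. Of 33793 clusters, 24732 carried 1 symbol, 2305 several and 6756 none; the cluster with the highest mean stood for each of 23360 genes, with symbols updated from a RefSeq table (GRCm38). For all matched members, the mean over 9 or 10 lines chose the same cluster. Genes under percentile 30 of the mean over the 9 established lines (log2 4.74) were not tested. The 9 lines were fitted in 3 groups with limma 3.58.1 in R 4.3.3 (lmFit, eBayes; 6 residual and 5.25 prior degrees of freedom), two-sided, with Benjamini-Hochberg adjustment over 16352 genes and a threshold of 0.05. The number of arrays limits the precision. The test was also run on simulated data, with independent noise of equal spread in all 9 lines. Those data held no line that stood apart as NIMM 4 did, so that case was not checked. Other steps used Python 3.11.15 with numpy 2.4.6 and pandas 2.3.3.

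By rule, values were given for members that passed, the 12 above background with the largest range, and the receptor and factor members, and in other lists for genes that passed or the 2 with the smallest F test p. Other named genes, members whose groups did not overlap among them, were chosen after their values were seen. Promoters followed the range, with Rsad2 in place of Isg20. Members, lists and rule were chosen with earlier results of these data known. Deviations of same-numbered lines from their group means had correlations from -0.135 to 0.12. Those of differently numbered lines ran from -0.116 to 0.147. With so few lines this cannot exclude pairing by number, and the main fit did not pair lines. Alternatives covered normalization, filter, cluster choice, prior, array weights, groups in the fit, line number as a block, offsets before log2 and each line left out.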

Additional observations from a re-analysis of the deposited data

How the results depend on the processing

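In IMM minus NIMM, 0 members passed under every alternative run. In IMM minus GKO-IMM, 4 passed with array weights (Cgas, Ifit2, Rsad2 and Tlr3; 10.8%, against 6.34% of all genes), 1 with the line number as a replicate block (Isg20; 2.7%, against 3.58%) and 5 from the 2 groups alone (13.5%, against 5.97%). In GKO-IMM minus NIMM, 3 passed with array weights (Cgas, Ifi35 and Rsad2; 8.11%, against 7.44%) and 2 with the block (Cmpk2 and Rsad2; 5.41%, against 5.6%). In the F test, 3 passed with array weights (8.11%, against 8.75%) and 2 with the block (5.41%, against 5.67%). The block fit leaves 2 residual degrees of freedom. Leaving out 1 line at a time gave 0 to 4 members in IMM minus GKO-IMM, 0 to 3 in GKO-IMM minus NIMM, 0 to 1 in IMM minus the mean of both (Tlr3 without NIMM 1, Ifitm3 without IMM 2) and 0 to 4 in the F test. Other normalizations, filters, cluster choice, prior and offsets left each of these counts at 0. The cause of the moves was not tested. At a minimum difference of 1, 0 members separated the parent. Over the alternatives, 24 to 31 members were above background. None of the differences recomputed under the alternatives changed sign; others, such as those of Ptpn6, Traf6, Dhx15 and Tyk2, were not recomputed. Of the single-gene results, 1119 stayed on their side of the threshold, 35 came past it and 37 no longer passed, the last for Trim21 and Sp100 alone. For Trim21 against NIMM only the block ended the call (-0.63, adjusted p = 0.109).

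The limits are 3 lines a group, 1 array a line, no detection calls and compressed differences near background. Ifit3, Isg15, Oas3, Oasl1, Dhx58, Usp18 and Xaf1 lie there. A gene that did not pass has not been shown to be equal between groups.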
